A study of Homo sapiens with 4 samples.

Results

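The vault RNA genes VTRNA1-1, VTRNA1-2, VTRNA1-3 and VTRNA2-1 were examined in 2 lists of BACH1-bound regions, one from each of 2 human airway cell lines. A region counted as theirs when its summit, the base of highest signal, lay on chromosome 5 of the hg19 build from 140070000 to 140126000 (the VTRNA1 genes) or from 135396000 to 135437000 (VTRNA2-1). Each row of a list is 1 region, and the rule gave 3 of the 10246 rows of the Calu3 list and 3 of the 3415 rows of the 16HBE14o- list. Each of VTRNA1-1, VTRNA1-2 and VTRNA1-3 had 1 region in each line, and VTRNA2-1 had none in either. The windows select by summit position, but the genes were chosen with results of these lists already known, the rank of VTRNA1-2 among them, so they count as selected on the fold enrichment in Calu3 and the peak signal in 16HBE14o-. Ranks and signals are therefore given as a description, without a test.

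Calu3 is a human lung adenocarcinoma line, and 16HBE14o- is an immortalised human bronchial epithelial line. Both were grown in the same serum-containing medium, no treatment is named for either, and the chromatin of both was precipitated with the same rabbit antibody against BACH1. Each line was assayed by chromatin immunoprecipitation sequencing in 2 replicates (4 samples), which the authors combined into 1 list of reproducible regions. Neither a spread between replicates nor the read depth can therefore be had from the lists, and no measure of binding could be tested between the lines.

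Vault RNAs are short noncoding RNAs made by RNA polymerase III. Some of them are built into vaults, large barrel-shaped ribonucleoprotein particles of the cytoplasm. VTRNA1-1 is known to bind the autophagy receptor p62 (SQSTM1) and to restrain autophagy, and VTRNA2-1, also called nc886, is known as an inhibitor of the kinase PKR. BACH1 is a transcription factor that pairs with small MAF proteins, binds antioxidant and MAF response elements with a TGAGTCA core, and represses haem and oxidative stress genes. The same core is bound by AP-1 (FOS and JUN) dimers.

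In RefSeq (GRCh38.p14) the gene table lists VTRNA1-1 with a length of 98 bases, VTRNA1-2 and VTRNA1-3 with 88 bases each, and VTRNA2-1 with 108. The nearest protein-coding genes around the VTRNA1 genes are ZMAT2 on one side and PCDHA1, the first gene of the protocadherin alpha cluster, on the other. A long noncoding RNA, LOC105378198, spans all 3 of them. VTRNA2-1 lies between TGFBI and SMAD5.

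The stretch in front of VTRNA1-1 is shown because it was the only vault RNA gene start with a promoter window at hand. By distance from the approximate gene position, the Calu3 region there (rank 45 of 10246) covered the whole stretch. The 16HBE14o- region (rank 415 of 3415) began at −169 bp and covered the stretch only from there on. LOC105378198 begins at the same base as VTRNA1-1 in RefSeq, so its promoter window (chr5:140711026-140711325 of GRCh38.p14, plus strand, 250 bases before to 50 bases from the start) is also that of VTRNA1-1. None of the 4 vault RNA genes had a window under its own symbol. The window is printed 5′ to 3′ with the TGAGTCA cores, read on either strand, in capitals.
LOC105378198 and VTRNA1-1 start: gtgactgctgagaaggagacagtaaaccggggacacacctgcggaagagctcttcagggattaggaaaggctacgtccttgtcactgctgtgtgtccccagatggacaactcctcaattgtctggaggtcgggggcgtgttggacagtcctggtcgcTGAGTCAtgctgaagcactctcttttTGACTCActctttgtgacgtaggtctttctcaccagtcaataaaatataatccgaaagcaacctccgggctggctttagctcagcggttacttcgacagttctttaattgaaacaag

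The window held 2 TGAGTCA cores in opposite orientation. The first ran from 93 to 87 bases before the start on the plus strand, and the second from 67 to 61 bases before it, where the plus strand reads TGACTCA. Their first bases were 26 bp apart. Of the 35116 RefSeq promoter windows of the same length, 4.95% held at least 1 such core on either strand and 0.222% (78 windows) held 2 or more.

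The first core was also part of a match to TGACNNNGC, the core of the antioxidant response element, on the minus strand from 95 to 87 bases before the start. That motif occurred in 13.3% of all windows. Both cores match TGANTCA by construction, which 7.71% of windows held. The longer MAF recognition element of 10 letters, which contains the core, was not matched (0.154% of windows). Nor were TGACGTCA, the cAMP response element (1.85%), or TATAAA (11.5%). Box A, an internal promoter element of polymerase III genes, was not matched when its second base was held to G (2.28% of windows). With A or G at that base, a form searched after the window was seen, it was matched once, on the plus strand at bases 10 to 20 of the gene (2.98% of windows). All motifs were searched on both strands, and a match describes the letters and does not show a bound site.

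VTRNA1-2 had the strongest region of the locus in both lines. In Calu3 the region ran on chromosome 5 from 140098172 to 140098711 and had a fold enrichment of 45.4, a −log10 p of 199 and a −log10 q of 193. It ranked 9 of 10246 by fold enrichment and 1 among the 679 rows of chromosome 5. In 16HBE14o- the region ran from 140098384 to 140098477 and had a peak signal of 141, on a scale that the sources do not state. It ranked 55 of 3415, and 4 of the 154 rows of chromosome 5. The medians of the lists were a fold enrichment of 4.13 in Calu3 and a signal of 30.1 in 16HBE14o-. Ranked by −log10 p or −log10 q in place of fold enrichment, VTRNA1-2 stood 14 in Calu3.

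VTRNA1-1 came second in both lines. Its Calu3 region, from 140090487 to 140091038, had a fold enrichment of 29.6 (−log10 q of 127) and ranked 45 (58 by −log10 p or −log10 q), and it was the fifth of chromosome 5. Its 16HBE14o- region, from 140090691 to 140090930, had a signal of 61.2 and ranked 415, with 12.1% of the list above it. On chromosome 5 that region ranked 20 of 154 rows. The fold enrichment of VTRNA1-2 in Calu3 was 1.53 times that of VTRNA1-1. No ratio is given for 16HBE14o-, whose scale is unstated.

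VTRNA1-3 had the weakest region of the 3. In Calu3 it ran from 140105524 to 140105864, was enriched 8.37-fold (−log10 q of 22.3) and ranked 1520, so that 14.8% of the list lay above it. In 16HBE14o- it ran from 140105576 to 140105815 with a signal of 29.0 and ranked 1856, below the middle of the list, with 54.3% of rows above it. Among the rows of chromosome 5, VTRNA1-3 ranked 112 of 679 in Calu3 and 95 of 154 in 16HBE14o-. The fold enrichment of VTRNA1-2 in Calu3 was 5.42 times that of VTRNA1-3. The order VTRNA1-2, VTRNA1-1, VTRNA1-3 was thus the same in both lists. The 3 genes are not replicates of one another, and the ratios have no measure of error.

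The other columns of the lists placed the genes as follows. All 3 Calu3 regions had a deposited q under 0.05, as did 73.3% of all Calu3 rows. In 16HBE14o-, VTRNA1-1 and VTRNA1-2 carried the highest score of the ninth column, 3.34, which 30.9% of the rows shared, whereas VTRNA1-3 had 1.72, under the median of 1.87. The browser score, which tops out at 1000 in 47.3% of the 16HBE14o- rows, was 1000 for VTRNA1-1 and VTRNA1-2 and 863 for VTRNA1-3.

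**Figure D1:**
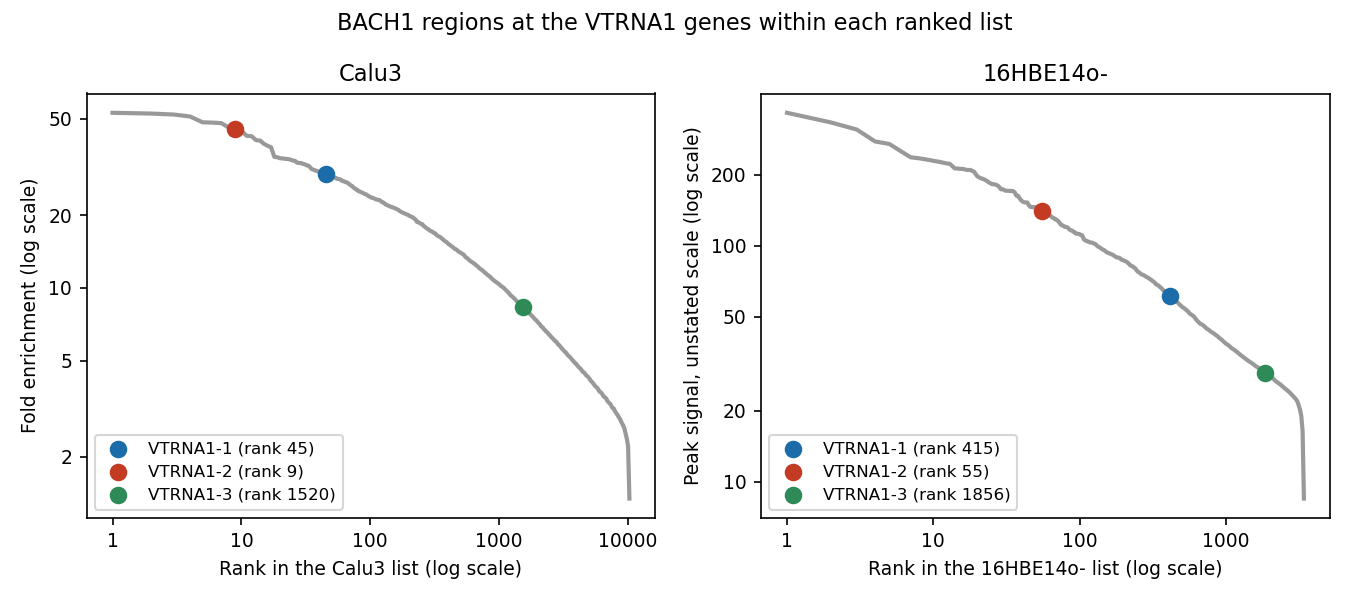
Signal against rank in the Calu3 list (left, fold enrichment) and the 16HBE14o- list (right, peak signal on an unstated scale), all axes logarithmic. The grey line is the whole list and the points are the regions at VTRNA1-1, VTRNA1-2 and VTRNA1-3; VTRNA1-2 ranks 9 and 55, VTRNA1-1 45 and 415, and VTRNA1-3 1520 and 1856 in Calu3 and 16HBE14o-.

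Every region of the VTRNA1 genes had its summit just below the position of its gene, which is the upstream side since these genes are transcribed from the plus strand. The gene positions taken were 140090860 for VTRNA1-1, 140098510 for VTRNA1-2 and 140105730 for VTRNA1-3. They are approximate and were not checked against an hg19 annotation, so the distances hold only to about that rounding. At VTRNA1-1 the summit lay 86 bp before the gene in Calu3 and 49 bp before it in 16HBE14o-. At VTRNA1-2 the distances were 71 bp in Calu3 and 58 bp in 16HBE14o-. At VTRNA1-3 they were 47 bp in Calu3 and 34 bp in 16HBE14o-.

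The Calu3 summits were the farther ones from the gene at all 3 loci, by 37, 13 and 13 bp at VTRNA1-1, VTRNA1-2 and VTRNA1-3. This order depended on the use of summits. With the midpoints of the rows it was turned at VTRNA1-2 (−69 bp from the gene in Calu3 and −80 bp in 16HBE14o-) and nearly gone at VTRNA1-3 (−36 bp in Calu3 and −35 bp in 16HBE14o-). Over all 1587 pairs of rows that overlapped between the lists, the median gap between summits was 19 bp (interquartile range 9.0 to 36.0). The gaps at VTRNA1-2 and VTRNA1-3 were thus under that median, and the gap at VTRNA1-1 was just above the upper quartile. Of the 16HBE14o- rows, the 2 at VTRNA1-1 and VTRNA1-3 were 240 bp wide like nearly all rows of that list, with the summit at the middle.

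Set against the printed window by distance from the gene, the Calu3 summit at VTRNA1-1 fell 4 bp from the centre of the first TGAGTCA core and 22 bp from that of the second. The 16HBE14o- summit fell 41 bp from the centre of the first and 15 bp from that of the second, on the side of the gene. The core positions come from GRCh38.p14 and the summits from hg19, and only distances to the gene were compared. The hg19 gene position is approximate, and the 16HBE14o- summit is the middle of a row of 240 bp. These gaps therefore cannot tell which core lies under a summit, or whether the lines differ in this.

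**Figure D2:**
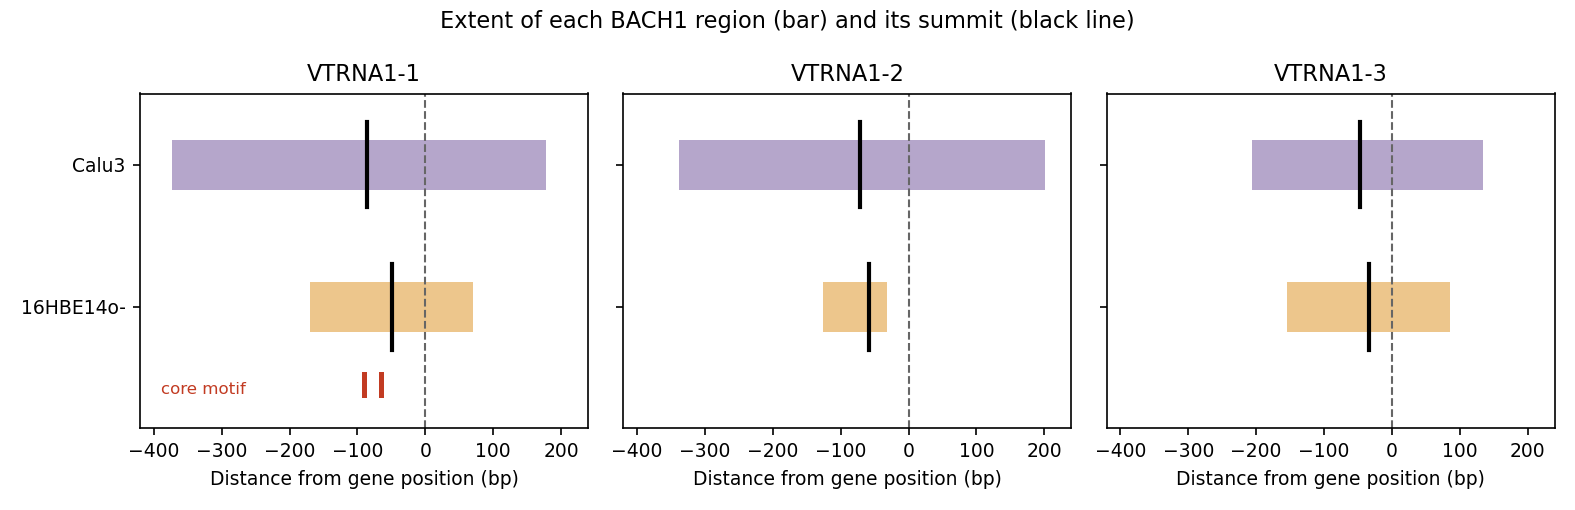
Extent (bars) and summit (black line) of the Calu3 region (upper row) and the 16HBE14o- region (lower row) at VTRNA1-1, VTRNA1-2 and VTRNA1-3, in bp from the gene position (dashed line). All 6 summits lie between 86 and 34 bp before the gene; the red marks at VTRNA1-1 are the 2 matches to the 7-base core in the RefSeq window.

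The summits followed the spacing of the genes. Between VTRNA1-1 and VTRNA1-2 the summits were 7665 bp apart in Calu3 and 7641 bp apart in 16HBE14o-, and the gene positions 7650 bp. Between VTRNA1-2 and VTRNA1-3 the summits were 7244 bp apart in both lines, and the gene positions 7220 bp. No other row of either list had its summit in the window around these genes.

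The regions differed in width, but widths cannot be compared between the lists, which are in different peak formats. Calu3 rows were 153 to 2234 bp wide, whereas nearly all 16HBE14o- rows were 240 bp wide. In Calu3 the widths were 552 bp at VTRNA1-1, 540 bp at VTRNA1-2 and 341 bp at VTRNA1-3, against a list median of 235 bp. In 16HBE14o- VTRNA1-2 had a row of 94 bp, one of only 55 rows (1.61%) that were not 240 bp wide. All of those 55 ranked between 1 and 77. Each Calu3 region of a VTRNA1 gene held the whole 16HBE14o- region, which took up 43.5% of it at VTRNA1-1, 17.4% at VTRNA1-2 and 70.4% at VTRNA1-3. Given the unlike formats, these shares do not show that BACH1 regions were wider in Calu3.

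All 3 regions were shared between the lines in the sense that the rows met by at least 1 bp. Over the whole lists, 15.3% of the Calu3 rows met a 16HBE14o- row, and 46.4% of the 16HBE14o- rows met a Calu3 row. Because strong rows are shared more often, the rows within 100 ranks of each gene on either side give a closer comparison. Around VTRNA1-2, 82.4% of 108 such Calu3 rows and 96.8% of 154 such 16HBE14o- rows were shared. Around VTRNA1-1 the shares were 76.4% of 144 rows in Calu3 and 84.0% of 200 rows in 16HBE14o-. Sharing at these ranks was thus the usual case.

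At the ranks of VTRNA1-3 sharing was the less usual case. Of its neighbours in rank, 29.8% of 198 Calu3 rows and 33.0% of 200 16HBE14o- rows were shared. A single region cannot be tested against these shares.

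**Figure D3:**
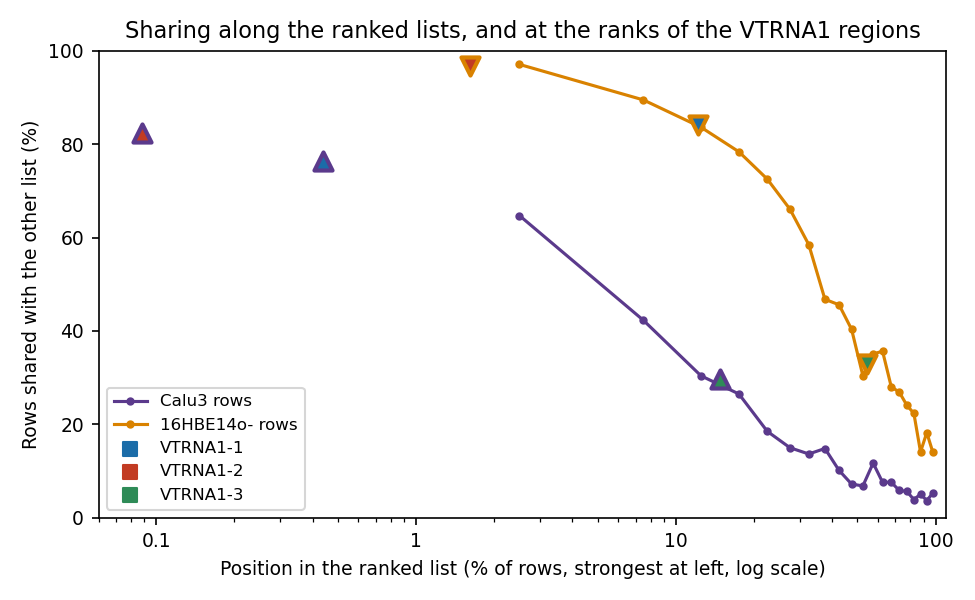
Share of rows that met a row of the other list (%), by position in the ranked list (% of rows, logarithmic, strongest at left), in 20 equal bins of the Calu3 list and of the 16HBE14o- list. Triangles give the share among the rows within 100 ranks of each VTRNA1 gene (upright for Calu3, inverted for 16HBE14o-), from 82.4% and 96.8% at VTRNA1-2 to 29.8% and 33.0% at VTRNA1-3.

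The VTRNA1 regions stood alone on their part of the chromosome. In Calu3 the nearest rows outside the window lay 725 kb below VTRNA1-1 (fold enrichment 2.38, rank 9783) and 795 kb above VTRNA1-3 (fold enrichment 4.02, rank 5377). In 16HBE14o- they lay 452 kb below VTRNA1-1 (signal 23.2, rank 2865) and 832 kb above VTRNA1-3 (signal 33.1, rank 1373). None of these 4 rows was shared. Within 1000 kb of VTRNA1-2 on either side, Calu3 held 11 rows and 16HBE14o- 9, of which 6 were shared in each. These counts include the 3 VTRNA1 regions themselves, all of them shared. Over the whole lists, 15.3% of Calu3 rows and 46.4% of 16HBE14o- rows were shared.

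VTRNA2-1, near 135416200, had no summit in its window in either list, so no BACH1 region was detected there at an unknown depth. The nearest row was the same site in both lines, 59.4 kb below the gene and thus outside the window. In Calu3 it ran from 135356506 to 135356980, ranked 426 and was enriched 14.9-fold. In 16HBE14o- it ran from 135356716 to 135356955 with a signal of 42.8 and ranked 811. In both lists this site was stronger than the region at VTRNA1-3. On the other side the nearest Calu3 row lay 112 kb above VTRNA2-1 (fold enrichment 3.38, rank 6964), and the nearest 16HBE14o- row lay 1753 kb above it.

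**Figure D4:**
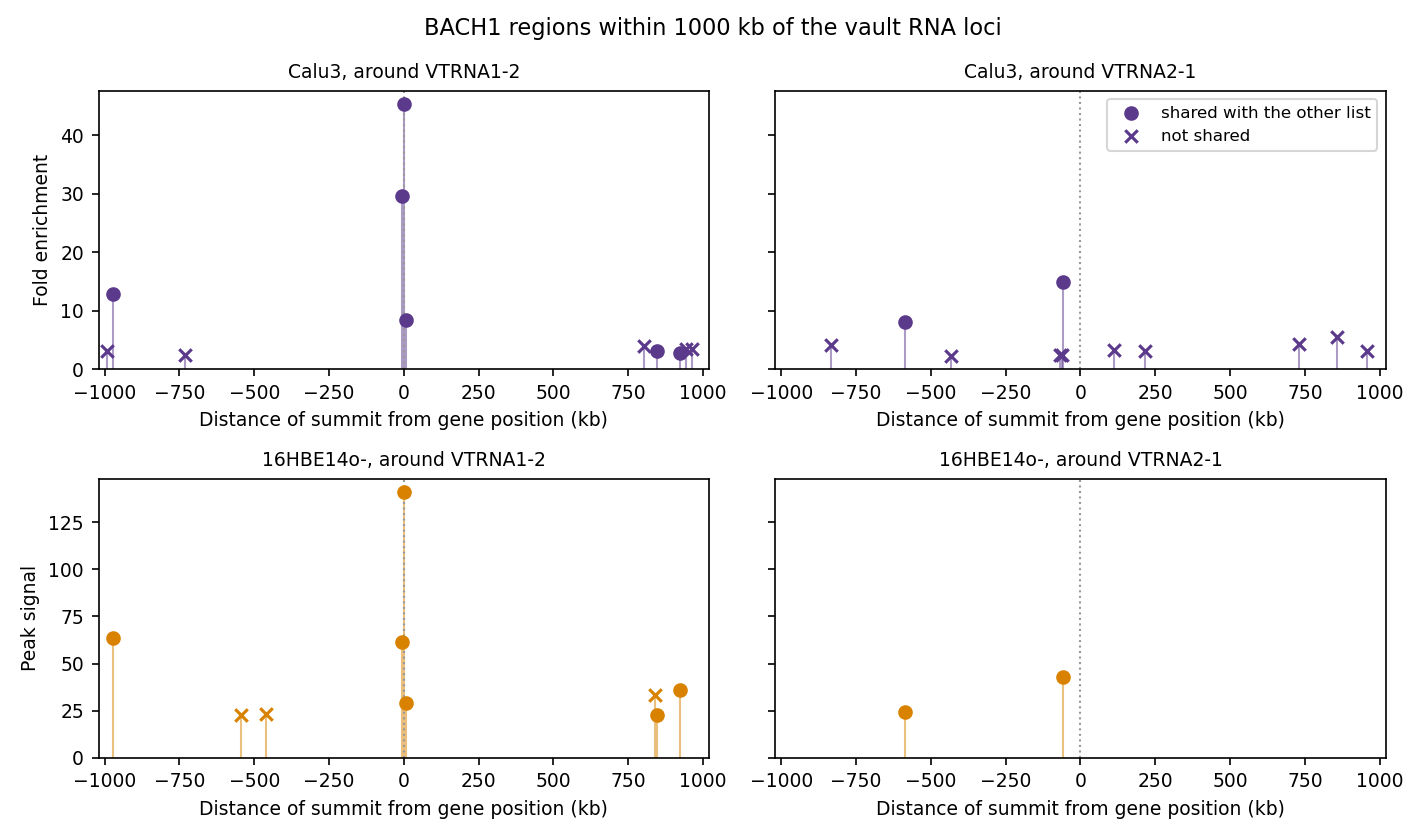
All rows with a summit within 1000 kb of VTRNA1-2 (left) and VTRNA2-1 (right), by distance in kb, with fold enrichment in Calu3 (top) and peak signal in 16HBE14o- (bottom); circles are shared rows and crosses are not. The 3 VTRNA1 regions stand at the centre of the left panels, whereas the nearest site to VTRNA2-1 lies 59.4 kb below it.

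The other shared sites most like VTRNA1-2 in their pair of ranks were found by the distance between log2 ranks in the 2 lists, over 1586 other pairs. The nearest lay on chromosome 17 from 78228392 to 78229002 and ranked 6 in Calu3 and 33 in 16HBE14o-, with a distance of 0.94. It was followed by chromosome 9 from 5839108 to 5839866, with ranks of 17 in Calu3 and 37 in 16HBE14o-. Next came chromosome 11 from 9385472 to 9386302 (ranks 8 in Calu3 and 151 in 16HBE14o-). The last were chromosome 7 from 92438956 to 92439437 (14 and 22) and chromosome 1 from 94374433 to 94375356 (25 and 62), in the same order of lines. By the sum of both ranks, VTRNA1-2 stood 22 among the 1587 pairs, VTRNA1-1 stood 144 and VTRNA1-3 stood 845.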

How the data were processed

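For each line the authors deposited 1 peak list in hg19 coordinates (per the submitters' processing notes), made from its 2 replicates by the irreproducible discovery rate, per the labels. The aligner, peak caller and any control are, in the sources used here, not given. The Calu3 columns hold, as the authors deposited them, fold enrichments (so read by the column's place in the format), −log10 p, −log10 q and a browser score. The 16HBE14o- columns hold, also as deposited, a signal of unstated scale, a browser score, and a score in the place of the q column that goes below 0 and was not read as a q. Values are the authors' and were used only within a list, to rank rows and, for the Calu3 fold enrichment, as ratios between rows. Coordinates are 1-based.

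The rows named are all those in the windows, the nearest on each side of them, and the 5 other shared pairs nearest in log2 rank. Members, lists and motifs were chosen with earlier results of these data known. Ranks follow the fold enrichment or signal, and ties take the best rank. Promoter windows are from RefSeq (GRCh38.p14). Python 3.11.15, numpy 2.4.6, pandas 2.3.3 and scipy 1.17.1 were used, and the steps were tested on simulated data. Alternatives changed the ranking column, merging, thresholds, overlap rule and summit.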

Additional observations from a re-analysis of the deposited data

How the results depend on the processing

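The count of 3 regions per line was unchanged by counting any base in the window, merging rows or keeping Calu3 rows of q under 0.05. A threshold at the median of the ninth column left 3 in Calu3 and 2 in 16HBE14o- (VTRNA1-3 was lost), and 2 shared pairs. Reciprocal overlap of 50% left 1 shared pair in both lines, since the other Calu3 regions were over 2 times as wide; with summits within 100 bp all 3 stayed. Of rows above each gene, ranking Calu3 by −log10 p or −log10 q gave 0.127% for VTRNA1-2, 0.556% for VTRNA1-1 and 13.6% for VTRNA1-3, against 0.0781%, 0.429% and 14.8% by fold enrichment. Ranking 16HBE14o- by the ninth column gave 0% for VTRNA1-1 and VTRNA1-2, by ties. In the rows kept by the median, which are fewer by construction, the shares for VTRNA1-1, VTRNA1-2 and VTRNA1-3 in Calu3 were 0.857%, 0.156% and 29.6%, and for VTRNA1-1 and VTRNA1-2 in 16HBE14o- 24.2% and 3.16%. On chromosome 5 alone they were 0.589%, 0% and 16.3% in Calu3, and 61.0% for VTRNA1-3 in 16HBE14o-. From midpoints, the distances to the gene were −98, −69 and −36 bp in Calu3 and −50, −80 and −35 bp in 16HBE14o-. Box A, searched with A or G at its second base (chosen after seeing the data), gave 1 match in the VTRNA1-1 window in place of 0. Where a setting gave VTRNA1-3 a rank, none put VTRNA1-3 above the others. No paired analysis was possible because the replicates of a line were already combined in its list, and no replicate could be left out. Distances to an hg19 annotation were not run. Read depth is unknown.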

Other observations

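Runs of neighbouring regions were counted after the values were seen. After overlapping rows were merged, Calu3 held 336 runs of 3 neighbouring regions no longer than the 14909 bp between the outer VTRNA1 summits, and 4 of them had all 3 regions shared. In 16HBE14o- 82 runs were no longer than 14885 bp, and 7 had all 3 shared. Runs with no further region within 400 kb on either side numbered 6 in Calu3 and 3 in 16HBE14o-, of which 1 and 2 were shared throughout. The VTRNA1 run is among those shared throughout in both lines. The limit of 400 kb, set after the values were seen, lies under its smallest gap, 452 kb in 16HBE14o-. The VTRNA1 run was therefore bound to pass, and these counts do not measure how rare it is. The limits of length and of fold enrichment or signal were taken from the VTRNA1 regions themselves, so the VTRNA1 run meets them by construction. VTRNA1-2 ranked 9 in Calu3, so few rows could reach its fold enrichment, and no other of the 336 runs held one. In 16HBE14o- 3 of the 82 runs, the VTRNA1 run included, reached the signal of VTRNA1-2. Runs overlap one another, and no test was made.

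Among the 55 16HBE14o- rows that were not 240 bp wide, 15 were narrower than that of VTRNA1-2 and 3, itself included, had its width of 94 bp.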
